A study of Mus musculus with 9 samples.

Results

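The NF-kB family of transcription factors has 5 subunits, encoded in mouse by Rel, Rela, Relb, Nfkb1 and Nfkb2. These 5 genes, taken by symbol from the deposited count tables, were 5 of 23393 genes with a usable symbol, and all 5 passed the filter on low counts. RNA was sequenced from regulatory T cells (Tregs) of mouse spleen, a CD4 T cell lineage that depends on Foxp3 and holds other immune cells in check. The 9 samples fell into 3 groups of 3: Tregs of the genotype ST2KO, and Tregs of wild-type mice divided by their ST2 into ST2-high and ST2-low. Il1rl1 encodes ST2, the interleukin-33 receptor, and the series is about ST2-positive Tregs and the inflammation and scarring of the kidney that follow ischemia. The labels give no age, strain background, injury state, sorting gate or knockout allele, and they do not say whether replicates came from separate animals, so the p-values measure only how these samples vary, and part of that variation may be technical.

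NF-kB subunits share a Rel homology region that binds DNA and pairs subunits into dimers. In resting cells most dimers are held in the cytoplasm by IkB proteins, and signals from antigen receptors, interleukin-1 family receptors and TNF receptors release them. The canonical branch acts through the IkB kinase complex and frees mainly c-Rel (Rel), RelA (Rela) and the p50 product of Nfkb1, whereas the non-canonical branch acts through the kinase NIK and the processing of the Nfkb2 precursor to free RelB. In T cells c-Rel is known for its part in Foxp3 induction during Treg development, and c-Rel and RelA are both needed by mature Tregs.

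The stretch upstream of the start of a gene is shown for Rel, Rela and Nfkb2. These are the 3 of 5 subunits with an entry in the promoter table, and Rel and Nfkb2 are known as NF-kB-responsive genes. The 250 bases before the start are RefSeq sequence of build GRCm38.p6, written 5′ to 3′ in the direction of transcription, with matches to the kB consensus in capitals. The Rel window lies at chr11:23770970-23771219 on the minus strand, the Rela window at chr19:5637291-5637540 on the plus strand and the window of the first of 3 annotated Nfkb2 starts at chr19:46304487-46304736 on the plus strand.
Rel: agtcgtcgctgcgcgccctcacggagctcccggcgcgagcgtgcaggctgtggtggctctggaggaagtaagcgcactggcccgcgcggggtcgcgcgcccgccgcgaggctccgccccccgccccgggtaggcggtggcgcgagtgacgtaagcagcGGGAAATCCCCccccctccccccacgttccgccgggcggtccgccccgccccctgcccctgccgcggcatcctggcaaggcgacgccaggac
Rela: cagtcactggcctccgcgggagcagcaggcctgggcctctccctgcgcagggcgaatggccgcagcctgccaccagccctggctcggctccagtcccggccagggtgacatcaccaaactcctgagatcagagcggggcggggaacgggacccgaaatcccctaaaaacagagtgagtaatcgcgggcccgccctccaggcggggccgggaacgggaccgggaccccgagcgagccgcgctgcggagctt
Nfkb2: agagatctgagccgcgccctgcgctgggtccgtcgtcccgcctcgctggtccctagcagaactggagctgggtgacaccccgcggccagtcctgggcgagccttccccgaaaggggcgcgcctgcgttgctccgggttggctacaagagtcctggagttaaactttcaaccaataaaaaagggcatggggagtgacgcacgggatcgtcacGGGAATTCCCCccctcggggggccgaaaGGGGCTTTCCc
The run in the Rel window, GGGAAATCCCC, begins 92 bases before the start. It holds overlapping matches on both strands. The Nfkb2 window holds GGGAATTCCCC, whose first letter lies 39 bases before the start, and GGGGCTTTCC, whose first letter lies 11 bases before it. The windows of the other Nfkb2 starts, not printed, each hold 1 match, GGAATGTCCC at 236 bases before the second start and GGGACTTTCC at 225 bases before the last. The Rela window holds 0 matches to the consensus and 4 to a looser kB pattern that fixes only the bases at its ends, overlaps counted. The printed Rel and Nfkb2 windows hold 5 and 9 matches to the looser pattern, counted in the same way. Among 32851 promoter windows of the same length, searched on both strands, 3.9% held a match to the kB consensus and 45.8% a match to the looser pattern. An AP-1 pattern, TGANTCA, found in 6.75% of windows, matched only the second Nfkb2 window. Relb and Nfkb1 are named only. A match describes these letters and does not show binding. The looser pattern was planned, whereas the consensus was added after seeing the data. Whether matches go with the changes in level was not tested.

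Total counts per library ranged from 11659659 to 43406680 in ST2KO, from 16223242 to 29320699 in ST2-high and from 19084575 to 20098456 in ST2-low. The 5 subunits were well covered, with between 602 counts (Relb, ST2KO replicate 3) and 25917 counts (Nfkb1, ST2-high replicate 1) per gene and library. Levels are given as CPM, counts scaled to library size with TMM factors. Il1rl1 averaged 67.6 CPM in ST2KO, 495 CPM in ST2-high and 2.62 CPM in ST2-low, and since the deleted part of the gene is not stated, counts over the whole gene do not check the knockout label. The T cell gene Cd3e was at 352 CPM in ST2KO, 351 CPM in ST2-high and 348 CPM in ST2-low. Of the Treg markers, Foxp3 was at 430.2 CPM in ST2KO, 568 CPM in ST2-high and 462 CPM in ST2-low, Ctla4 at 786, 2123 and 1996 CPM, Ikzf2 at 1237, 1430.3 and 1059.6 CPM, and Il2ra at 496, 449 and 402 CPM in the same order of groups. The 4 summed to between 2897 and 3024 CPM in ST2KO, between 4454 and 4754 CPM in ST2-high and between 3835 and 3996 CPM in ST2-low. This sum, like the subunits, separated the 3 groups in the same order. Foxp3 and Ctla4 followed that order, with the largest fall in ST2KO for Ctla4, whereas Ikzf2 was lowest in ST2-low and Il2ra highest in ST2KO. In ST2KO against ST2-low, 2 of the 4 were called higher and 1 lower by the edgeR test described below. Of all tested genes, 33% were called higher and 29.3% lower there. The part of this sum in the differences of the subunits was not tested. ST2-high replicate 3 differed most from its fellow replicates, with chi-square values per gene of 16.5 and 19.9 where all other pairs within a group lay at or below 8.22.

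All 5 subunit transcripts were lowest in ST2KO Tregs and highest in ST2-high Tregs, with ST2-low Tregs between them. In none of the 15 comparisons of a subunit between a pair of groups did the libraries of the groups overlap. Among all 12219 tested genes, groups did not overlap for 66.8% in ST2KO against ST2-high, for 67.2% in ST2KO against ST2-low and for 38.1% in ST2-high against ST2-low. The size of the change differed between subunits: it was greatest for Rel and smallest for Rela when ST2KO was set against ST2-high. The 3 comparisons share their samples in pairs and are not independent of each other. In bulk RNA, fewer cells that carry a transcript and less of it per cell cannot be told apart.

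**Figure D1:**
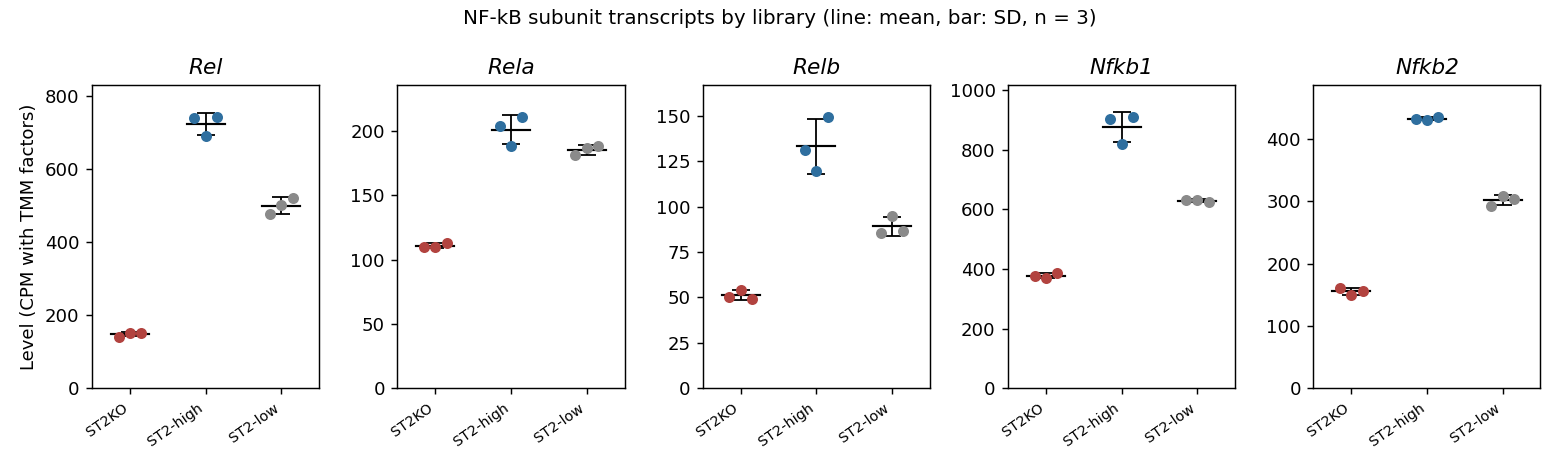
Level of each NF-kB subunit transcript (CPM with TMM factors, y axis starting at 0) in each of the 9 libraries, with ST2KO, ST2-high and ST2-low from left to right; points are libraries, lines are means and bars are SD (n = 3). Every ST2KO point lies below every wild-type point, and the ST2-high and ST2-low points are closest for Rela.

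Rel encodes c-Rel, a subunit with a transactivation domain. Its level was 141.5, 152.4 and 152.5 CPM in the ST2KO libraries, 740.1, 689 and 741 CPM in the ST2-high libraries, and 476, 500.4 and 522 CPM in the ST2-low libraries. The 3 groups formed separate bands, and the highest ST2KO library was far below the lowest ST2-low library. By the quasi-likelihood test of edgeR, with p adjusted over all tested genes (Benjamini-Hochberg), Rel fell 4.87-fold in ST2KO against ST2-high (log2 fold change -2.28 ± 0.06 SE, adjusted p = 1.46e-24) and 3.36-fold against ST2-low (-1.75 ± 0.05, adjusted p = 6.80e-22). A fall as large or larger was found for 1.36% of tested genes in the comparison with ST2-high and for 2.57% in that with ST2-low. Between the wild-type groups Rel rose 1.45-fold in ST2-high against ST2-low (0.54 ± 0.05, adjusted p = 2.07e-09).

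Rela encodes RelA, a broadly expressed transactivating subunit. Its level was 109.7, 110.2 and 112.9 CPM in ST2KO, 204, 188.3 and 211 CPM in ST2-high, and 181, 187 and 188.2 CPM in ST2-low. The ST2KO libraries stood well apart, whereas the lowest ST2-high library lay just above the highest ST2-low library. Rela fell 1.81-fold in ST2KO against ST2-high (log2 fold change -0.86 ± 0.05 SE, edgeR adjusted p = 5.67e-15) and 1.67-fold against ST2-low (-0.74 ± 0.05, adjusted p = 2.06e-13). Between ST2-high and ST2-low the estimate was 0.12 ± 0.05 with a 95% interval from 0.01 to 0.22, and it did not pass the adjusted threshold (edgeR adjusted p = 0.0952). Rela passed when ST2-high replicate 2 was left out (0.16, adjusted p = 0.0254), and was 0.08 (adjusted p = 0.256) without ST2-high replicate 3.

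Relb encodes RelB, the transactivating subunit released by the non-canonical branch. Its level was 50.5, 54.2 and 49.3 CPM in ST2KO, 130.8, 119.3 and 149 CPM in ST2-high, and 85.5, 94.9 and 86.7 CPM in ST2-low. It was the least abundant of the 5 in counts, and its ST2-high libraries spread the widest of any subunit and group, with a coefficient of variation of 11.2%. Relb fell 2.59-fold in ST2KO against ST2-high (log2 fold change -1.37 ± 0.07 SE, edgeR adjusted p = 2.52e-16) and 1.73-fold against ST2-low (-0.79 ± 0.07, adjusted p = 6.72e-11). It rose 1.49-fold in ST2-high against ST2-low (0.58 ± 0.07, adjusted p = 8.04e-08). Without ST2-high replicate 3, which had the highest Relb level, that difference was 0.49 (adjusted p = 2.55e-08).

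Nfkb1 encodes the precursor p105, which is processed to the DNA-binding subunit p50 and also acts as an IkB. Its level was 377, 371 and 386.5 CPM in ST2KO, 904, 818 and 908 CPM in ST2-high, and 630.5, 632 and 623 CPM in ST2-low. The libraries were close together in ST2KO and ST2-low, with coefficients of variation of 2.03% and 0.742%, and spread more in ST2-high (5.82%). The bands did not meet. Nfkb1 fell 2.32-fold in ST2KO against ST2-high (log2 fold change -1.21 ± 0.05 SE, edgeR adjusted p = 1.01e-18) and 1.66-fold against ST2-low (-0.73 ± 0.05, adjusted p = 2.05e-13). Nfkb1 rose 1.39-fold in ST2-high against ST2-low (0.48 ± 0.05, adjusted p = 1.08e-08).

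Nfkb2 encodes the precursor p100, which retains RelB until it is processed to p52. Its level was 161.8, 150.5 and 155.6 CPM in ST2KO, 432.5, 430.8 and 434.6 CPM in ST2-high, and 293, 309 and 304.5 CPM in ST2-low. The ST2-high libraries were nearly identical, with a coefficient of variation of 0.441%, the smallest of any subunit and group. At their counts, between 6593 and 12403, counting error alone would be expected to give a wider spread, so this value says little about the group. Nfkb2 fell 2.77-fold in ST2KO against ST2-high (log2 fold change -1.47 ± 0.05 SE, edgeR adjusted p = 4.51e-21) and 1.94-fold against ST2-low (-0.95 ± 0.05, adjusted p = 2.18e-16). In ST2-high against ST2-low it rose 1.43-fold (0.52 ± 0.05, adjusted p = 1.08e-09). In RefSeq the Nfkb2 gene overlaps Psd, which had between 5 and 27 counts per library, and 4833438C02Rik, and Nfkb1 overlaps Gm46827; the strand setting of the counting is not given in the sources used here.

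**Figure D2:**
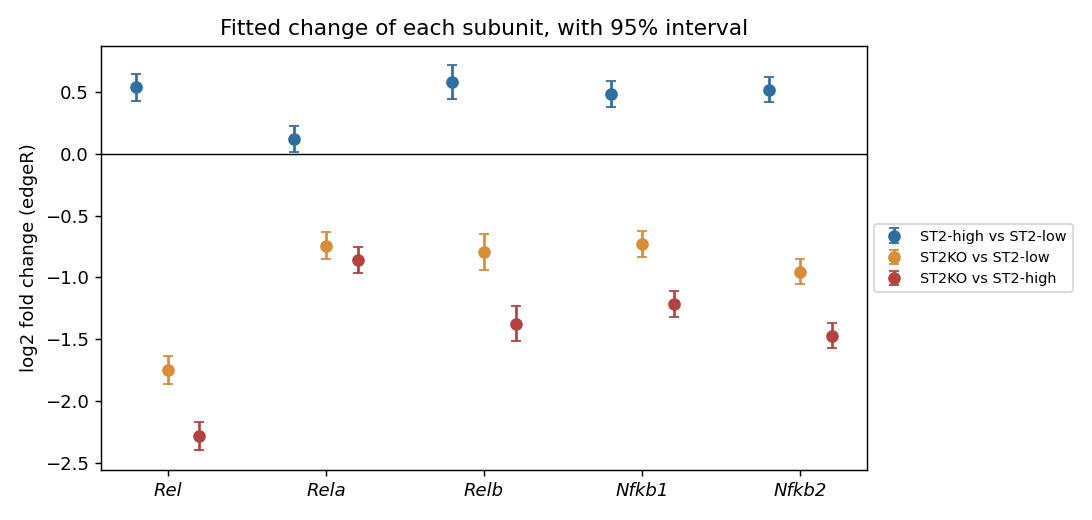
Fitted log2 fold change of each subunit (y axis) with its 95% interval in ST2-high against ST2-low (blue), ST2KO against ST2-low (orange) and ST2KO against ST2-high (red). All intervals of the ST2KO comparisons lie below 0, Rel lies lowest at -1.75 and -2.28, and the interval of Rela in ST2-high against ST2-low comes closest to 0.

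In ST2KO against ST2-high, 5 of 5 subunits fell, where 32.6% of tested genes were called lower, 31.9% higher and 64.5% in either direction. In ST2KO against ST2-low, 5 of 5 fell as well, where 29.3% of tested genes were called lower, 33% higher and 62.3% in either direction. In ST2-high against ST2-low, 4 of 5 subunits rose and Rela did not pass, where 15.3% of tested genes were called higher, 10.8% lower and 26.1% in either direction. The median log2 fold change of all tested genes was 0.02 in ST2KO against ST2-high, 0.05 in ST2KO against ST2-low and -0.002 in ST2-high against ST2-low. The 4 rises in ST2-high against ST2-low were each under 1.5-fold, so a fit that required a minimum fold of 1.5 could call none of these 4 subunits.

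**Figure D3:**
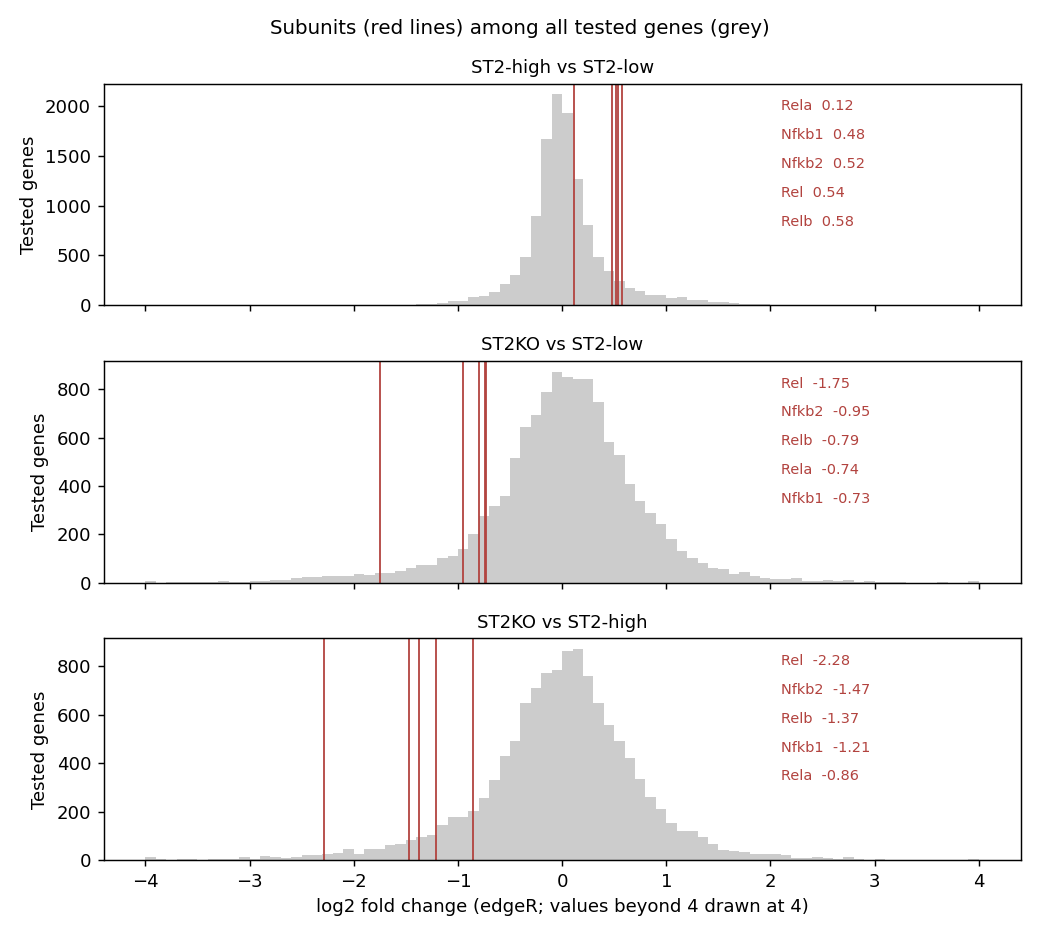
Distribution of the log2 fold change over 12219 tested genes (grey, number of genes on the y axis) in each of the 3 comparisons, with the 5 subunits as red lines and their values at the right. Rel lies in the lower tail in both ST2KO comparisons, and 4 subunits lie close together between 0.48 and 0.58 in ST2-high against ST2-low, with Rela at 0.12.

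The ratio of one subunit to Rela within a library does not depend on library size and tests whether subunits moved by unequal amounts. The 4 ratios were each compared over the 3 groups by an exact permutation test over 1680 assignments of the samples, whose p-values are given unadjusted for the 4 tests, and then with Benjamini-Hochberg adjustment over them. Between a pair of groups of 3 the exact two-sided test cannot go below p = 0.1. Rel counts per Rela count were 1.29, 1.38 and 1.35 in ST2KO, 3.62, 3.66 and 3.52 in ST2-high, and 2.63, 2.68 and 2.77 in ST2-low. The mean log2 ratio was 0.42 ± 0.05 in ST2KO, 1.85 ± 0.03 in ST2-high and 1.43 ± 0.04 in ST2-low (SD, n = 3 each; exact permutation p = 0.00357, adjusted 0.00714). All pairs of groups were apart, and 0.00357 is the smallest p that this test can give.

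Nfkb2 followed the same order relative to Rela. Its log2 ratio to Rela was 0.49 ± 0.06 in ST2KO, 1.11 ± 0.08 in ST2-high and 0.70 ± 0.02 in ST2-low (SD, n = 3 each; exact permutation p = 0.00357, adjusted 0.00714), again with no overlap between any pair of groups. Relb and Nfkb1 differed from this: relative to Rela they stood higher in ST2-high, while ST2KO and ST2-low libraries overlapped. The log2 ratio of Relb to Rela was -1.11 ± 0.09 in ST2KO, -0.60 ± 0.09 in ST2-high and -1.06 ± 0.07 in ST2-low (SD, n = 3 each; exact permutation p = 0.0143, adjusted 0.0190). The difference of -0.05 between ST2KO and ST2-low had an exact permutation p of 0.4. For Nfkb1 the ratio was 1.77 ± 0.01 in ST2KO, 2.12 ± 0.02 in ST2-high and 1.76 ± 0.04 in ST2-low (SD, n = 3 each; exact permutation p = 0.0286, adjusted 0.0286). The difference of 0.01 between ST2KO and ST2-low had an exact permutation p of 0.8. At this number of samples a p that misses the threshold does not show equal ratios.

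**Figure D4:**
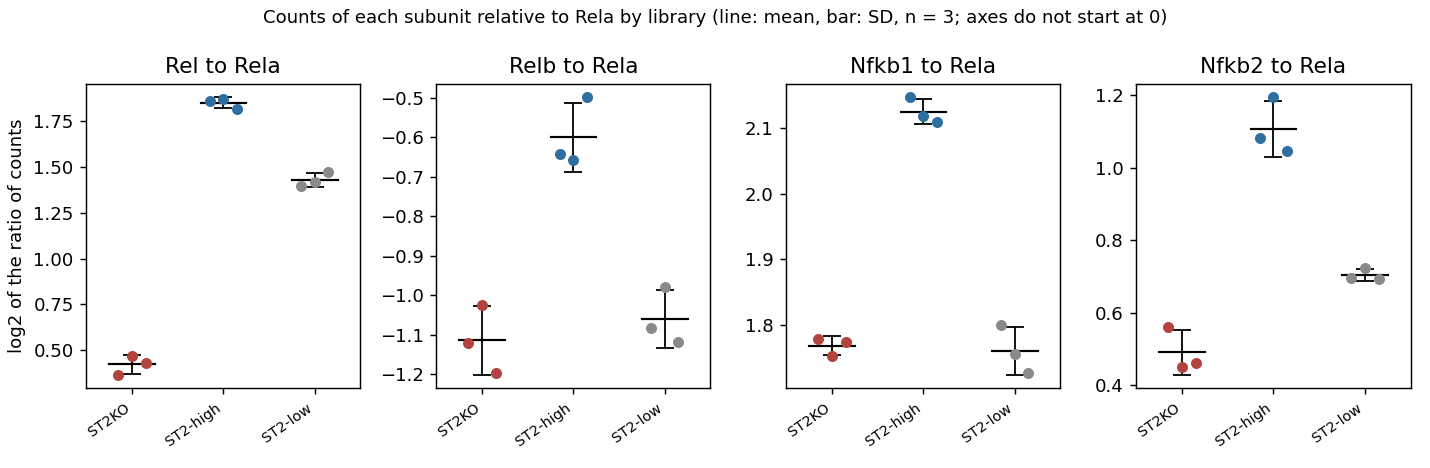
log2 of the ratio of each subunit's counts to the Rela counts of the same library (y axes, not starting at 0), with ST2KO, ST2-high and ST2-low from left to right; points are libraries, lines are means and bars are SD (n = 3). The ratios of Rel and Nfkb2 form 3 separate bands, while for Relb and Nfkb1 the ST2KO and ST2-low points overlap below the ST2-high points.

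Levels of different genes can be compared only per length of transcript, so CPM were divided by the length in kilobases of the GENCODE transcript matched to RefSeq (7466 bases for Rel, 2716 for Rela, 2209 for Relb, 4117 for Nfkb1 and 3141 for Nfkb2). By this length Nfkb1 had the highest level in every group, at 91.9 ± 1.86 CPM per kilobase in ST2KO, 213 ± 12.4 in ST2-high and 153 ± 1.13 in ST2-low (SD, n = 3). Nfkb2 came next at 49.6 ± 1.80 in ST2KO, 137.7 ± 0.61 in ST2-high and 96.2 ± 2.54 in ST2-low. Rel was lowest in ST2KO at 19.9 ± 0.84 CPM per kilobase, below Relb at 23.2 ± 1.16 and Rela at 40.8 ± 0.64. In ST2-high it stood at 96.9 ± 3.97, above Rela at 74.0 ± 4.22 and Relb at 60.2 ± 6.77, and in ST2-low it stood at 66.9 ± 3.09, within the spread of Rela at 68.3 ± 1.41 and above Relb at 40.3 ± 2.33. The order depends on the transcript length assumed, for Nfkb1 as for Rel. Per kilobase of coding sequence Rel had the highest level in ST2-high (410.1 against 301 for Nfkb1) and in ST2-low (283 against 216 for Nfkb1), while in ST2KO it was Nfkb1 (129.8 against 84.4 for Rel). Per kilobase of the union of all annotated exons, which for Nfkb1 spans 12061 bases, Nfkb1 was highest in no group: in ST2KO it stood at 31.4 against 36.1 for Rela and 34.0 for Nfkb2, in ST2-high at 72.7 against 96.9 for Rel and 94.4 for Nfkb2, and in ST2-low at 52.1 against 66.9 for Rel and 65.9 for Nfkb2.

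The 5 levels per kilobase summed to 225.5 ± 2.06 in ST2KO, 582 ± 27.0 in ST2-high and 424 ± 7.85 in ST2-low (SD, n = 3), and the make-up of the sum differed between groups. Rel made up 8.84% ± 0.37 of the sum in ST2KO, 16.7% ± 0.18 in ST2-high and 15.8% ± 0.55 in ST2-low. Rela made up 18.1% ± 0.16 in ST2KO, 12.7% ± 0.14 in ST2-high and 16.1% ± 0.13 in ST2-low. The share of Nfkb1 was 40.7% ± 0.45 in ST2KO, 36.6% ± 0.57 in ST2-high and 36.0% ± 0.75 in ST2-low. The shares of Relb (10.3% ± 0.60 in ST2KO, 10.3% ± 0.74 in ST2-high and 9.49% ± 0.42 in ST2-low) and Nfkb2 (22.0% ± 0.76, 23.7% ± 1.03 and 22.7% ± 0.18) varied less. These shares are descriptions with no test, and parts of a sum cannot move independently of each other.

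The tested genes whose log2 CPM was most like that of a subunit over the 9 libraries, among 7567 genes with a mean of at least 10 CPM, were Jak2 and Samsn1 for Rel (Pearson r = 0.999 for each) and Eprs, Kdm2b and Arhgap31 for Rela (r = 0.997 for each). For Relb they were Tab2 (r = 0.995), Chd7 (r = 0.994) and Wisp1 (r = 0.993), for Nfkb1 Itgav, Rora and Zc3h12a (r = 0.998 for each), and for Nfkb2 Zfp36l1 (r = 0.998), Mapk6 (r = 0.998) and Kdm6b (r = 0.997). The 9 libraries form 3 groups and share their library factors, so these values describe mainly the order and spacing of the group means. Jak2, the cytokine receptor kinase ranked first for Rel, was at 237 CPM in ST2KO, 982 CPM in ST2-high and 712 CPM in ST2-low. Tab2 encodes an adaptor of the kinase TAK1 upstream of the IkB kinase complex.

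Other genes of the pathway were counted by role from lists of named members. The lists were chosen with earlier results of these data known, so the counts are descriptions and not independent support. Among all tested genes, 31.9% were called higher and 32.6% lower in ST2KO against ST2-high, 33% higher and 29.3% lower in ST2KO against ST2-low, and 15.3% higher and 10.8% lower in ST2-high against ST2-low, and a list whose shares lie near these does not stand out by its counts. IkB proteins, the inhibitors and nuclear partners of the subunits, were all tested. In ST2KO against ST2-high, 0 of 6 rose and 6 of 6 fell, with a median log2 fold change of -1.14. In ST2KO against ST2-low, 0 rose, 5 fell and 1 did not pass (median -0.53), and in ST2-high against ST2-low 6 of 6 rose (median 0.81). Nfkbie, which encodes IkB epsilon, was at 71.8 ± 2.37 CPM in ST2KO, 245 ± 9.91 CPM in ST2-high and 132.9 ± 4.61 CPM in ST2-low (SD, n = 3). Nfkbia, which encodes IkB alpha, was at 338 ± 5.85 CPM in ST2KO, 716 ± 22.6 CPM in ST2-high and 422 ± 15.1 CPM in ST2-low. Nfkbid, whose product in mouse supports Foxp3 induction together with c-Rel, was at 90.7 ± 2.69 CPM in ST2KO, 207 ± 7.97 CPM in ST2-high and 153.9 ± 6.48 CPM in ST2-low.

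Genes upstream of the subunits were split in direction. Of the non-canonical branch, 0 of 6 rose and 4 fell in ST2KO against ST2-high (median -0.51), 2 rose and 4 fell in ST2KO against ST2-low (median -0.46), and 4 rose and 1 fell in ST2-high against ST2-low (median 0.26). Map3k14, which encodes NIK, was at 60.9 ± 0.84 CPM in ST2KO, 226 ± 15.6 CPM in ST2-high and 222 ± 7.68 CPM in ST2-low (SD, n = 3). It fell 3.71-fold in ST2KO against ST2-high (log2 fold change -1.89 ± 0.06 SE, edgeR adjusted p = 1.34e-22) and 3.65-fold against ST2-low (-1.87 ± 0.06, adjusted p = 3.10e-22). Birc3, a ubiquitin ligase that keeps NIK low, was at 147.1 ± 6.79 CPM in ST2KO, 394 ± 21.9 CPM in ST2-high and 328 ± 6.53 CPM in ST2-low. Traf3, an adaptor for the destruction of NIK, was at 153.9 ± 3.48 CPM in ST2KO, 165.6 ± 18.6 CPM in ST2-high and 111.7 ± 4.05 CPM in ST2-low, and unlike Birc3 it rose in ST2KO against ST2-low by 0.46 ± 0.06 on the log2 scale (edgeR adjusted p = 1.39e-07).

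Of 6 IkB kinases and related genes, 3 rose and 3 fell in each ST2KO comparison, with medians of 0.08 against ST2-high and 0.05 against ST2-low; in ST2-high against ST2-low 1 rose and 1 fell (median 0.01). Ikbkb, the catalytic kinase of the canonical branch, was at 208 ± 8.66 CPM in ST2KO, 170.2 ± 6.01 CPM in ST2-high and 168.2 ± 0.85 CPM in ST2-low (SD, n = 3), and rose 1.22-fold in ST2KO against ST2-high (edgeR adjusted p = 9.01e-06). Ikbke, which encodes a related kinase, averaged 240.3 CPM in ST2KO, 144.7 CPM in ST2-high and 141.6 CPM in ST2-low, and rose by 0.74 ± 0.06 on the log2 scale in ST2KO against ST2-high (edgeR adjusted p = 2.14e-11).

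Of 11 TNF receptors that feed the pathway, 1 rose and 5 fell in ST2KO against ST2-high (median -0.29), 2 rose and 6 fell in ST2KO against ST2-low (median -0.63), and 5 rose and 1 fell in ST2-high against ST2-low (median 0.29). The medians of -0.29 and 0.29 are the values of Cd40, which averaged only 1.23 CPM and was not called. Tnfrsf11a and Ltbr were lower still, at 0.644 and 0.609 CPM, so these medians say little about the list. Tnfrsf1b, which encodes TNF receptor 2, was at 253 ± 13.7 CPM in ST2KO, 1069 ± 77.0 CPM in ST2-high and 724 ± 2.68 CPM in ST2-low (SD, n = 3). Tnfrsf4, which encodes the costimulatory receptor OX40, was at 105.8 ± 8.59 CPM in ST2KO, 409.9 ± 12.7 CPM in ST2-high and 278 ± 7.83 CPM in ST2-low. Of 8 members of the linear ubiquitin and TNF receptor adaptor list, 4 rose and 3 fell in ST2KO against ST2-high, 5 rose and 3 fell in ST2KO against ST2-low and 2 rose in ST2-high against ST2-low, with medians of 0.11, 0.29 and 0.08. Traf1 was at 140.5 ± 4.08 CPM in ST2KO, 284 ± 20.8 CPM in ST2-high and 197 ± 11.3 CPM in ST2-low, and its relative Traf5 was higher in ST2KO, at 29.8 ± 2.09 CPM against 14.2 ± 0.45 CPM in ST2-high and 13.9 ± 1.56 CPM in ST2-low. Of 8 genes of the IL-33 receptor and MyD88 adaptor list, Il1rl1 among them, 1 rose and 5 fell in ST2KO against ST2-high, 2 rose and 3 fell in ST2KO against ST2-low, and 2 rose and 1 fell in ST2-high against ST2-low, with medians of -0.15, -0.13 and 0.05. Il1rl1 counts among those that fell in ST2KO against ST2-high and among those that rose in the other comparisons. It encodes the ST2 by which the groups were defined, so its own calls are not a result about the pathway.

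The 10 feedback inhibitors around A20 gave 4 that rose and 5 that fell in ST2KO against ST2-high, 4 and 6 in ST2KO against ST2-low, and 2 and 1 in ST2-high against ST2-low, with medians of -0.32, -0.28 and -0.01. In either direction, 64.5%, 62.3% and 26.1% of all tested genes were called in these comparisons. Tnfaip3, which encodes A20, was at 2344 ± 102 CPM in ST2KO, 4384 ± 111 CPM in ST2-high and 4035 ± 88.5 CPM in ST2-low (SD, n = 3). Its rise in ST2-high against ST2-low did not pass (0.12 ± 0.05, edgeR adjusted p = 0.0832), much as for Rela. Of 10 genes of the IkB ubiquitin ligase and of precursor processing, 2 rose and 2 fell in ST2KO against ST2-high, 4 rose and 2 fell in ST2KO against ST2-low, and 1 rose in ST2-high against ST2-low, with medians of -0.05, 0.01 and 0.02. Of 11 nuclear cofactors, 2 rose and 6 fell, 3 rose and 6 fell, and 1 rose and 4 fell in the same order of comparisons, with medians of -0.14, -0.25 and -0.09. Nkrf, which encodes a repressor of NF-kB-driven genes, was at 26.4 ± 2.25 CPM in ST2KO, 40.9 ± 4.09 CPM in ST2-high and 53.6 ± 2.48 CPM in ST2-low.

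Of 28 genes known as NF-kB targets, 26 were tested. This list too was chosen with earlier results of these data known, so its counts do not measure NF-kB activity independently. In ST2KO against ST2-high 4 rose and 20 fell (median -1.05), in ST2KO against ST2-low 5 rose and 15 fell (median -0.41), and in ST2-high against ST2-low 19 rose and 2 fell (median 0.45). The shares of all tested genes were 31.9% higher and 32.6% lower, 33% and 29.3%, and 15.3% and 10.8% in the same order of comparisons. Birc3, Traf1, Tnfaip3, Nfkbia and Nfkbie stand in this list and in the lists above. Il2ra is also counted as a Treg marker, and Vcam1 as a myeloid and dendritic marker. Chuk and Traf2 are likewise shared among the lists above. Cd83, an activation marker, was at 45.2 ± 3.40 CPM in ST2KO, 573 ± 12.4 CPM in ST2-high and 272 ± 13.2 CPM in ST2-low (SD, n = 3), a 12.8-fold fall in ST2KO against ST2-high (edgeR adjusted p = 1.41e-28). Ccr7, the lymph node homing receptor, did not follow the order of the subunits: it was at 180.2 ± 5.51 CPM in ST2KO, 1382 ± 90.8 CPM in ST2-high and 2004 ± 50.7 CPM in ST2-low. Ltb, which encodes lymphotoxin beta, was higher in ST2KO at 226 ± 9.96 CPM, against 124.5 ± 3.47 CPM in ST2-high and 95.7 ± 3.09 CPM in ST2-low. Of 5 NFAT factors, relatives that also carry a Rel homology region, 4 were tested; 1 rose and 1 fell in each ST2KO comparison (medians 0.04 against ST2-high and 0.07 against ST2-low), and 2 rose and 1 fell in ST2-high against ST2-low (median 0.13). Some calls of these lists in ST2-high against ST2-low lay near the threshold: of 20 alternatives, the one with a minimum fold not counted, Chuk lost its call in 11, Nlrc3 in 10, Irak4 in 7 and Traf6 in 5.

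**Figure D5:**
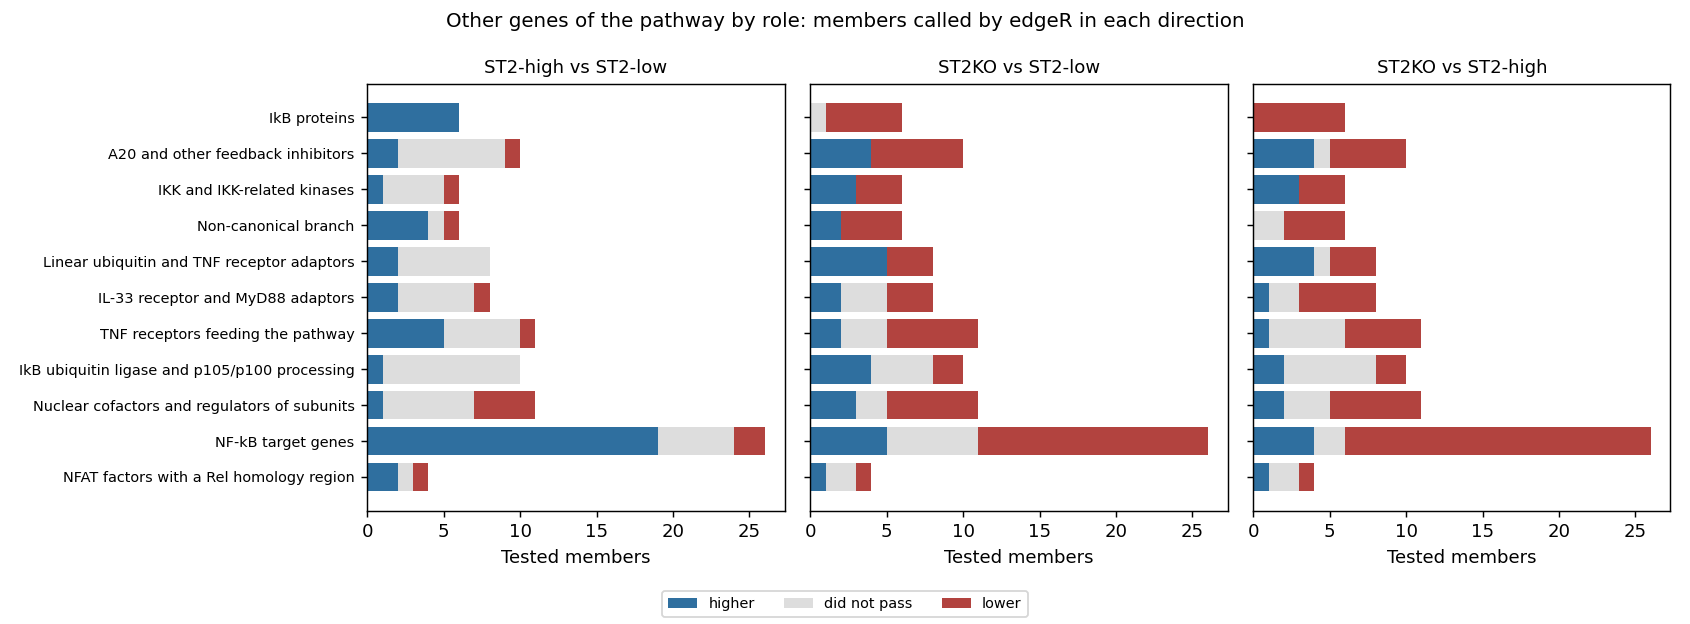
Number of tested members of each pathway list described in the text (x axis) that edgeR called higher (blue), did not pass (grey) or called lower (red), in ST2-high against ST2-low, ST2KO against ST2-low and ST2KO against ST2-high from left to right. The IkB proteins and the NF-kB target genes are mostly blue in ST2-high against ST2-low and mostly red in both ST2KO comparisons, while the kinase list holds 3 blue and 3 red members in each ST2KO comparison.

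Markers of some other spleen cells were lower in the ST2KO group. The 12 myeloid and dendritic markers summed to between 45.0 and 60.1 CPM in ST2KO, between 156.2 and 161.5 CPM in ST2-high and between 151.1 and 192.4 CPM in ST2-low, and of 11 tested 10 fell in ST2KO against ST2-high, where 32.6% of all tested genes were called lower, and 9 fell against ST2-low, where 29.3% were. The 8 B cell markers summed to between 88.03 and 108.2 CPM in ST2KO, between 117.9 and 143.8 CPM in ST2-high and between 102.8 and 148.8 CPM in ST2-low. The myeloid and dendritic sum of ST2KO overlapped with no other group, whereas the B cell sum of ST2KO overlapped with that of ST2-low, and both sums overlapped between ST2-high and ST2-low. Single myeloid and dendritic markers did differ there: 2 of 11 were called higher in ST2-high and 3 lower, against 15.3% and 10.8% of all tested genes. Zbtb46 averaged 19.0 CPM in ST2-high and 3.77 CPM in ST2-low, and Vcam1 22.2 and 33.0 CPM. The plasma cell sum was between 60.6 and 70.3 CPM in ST2KO, between 77.8 and 120.01 CPM in ST2-high and between 82.7 and 130.2 CPM in ST2-low, and the neutrophil sum was between 2.37 and 3.27 CPM, between 8.41 and 11.9 CPM, and between 5.63 and 21.7 CPM in the same order of groups. NK cell, CD8 T cell and erythroid or platelet markers summed to at most 26.4, 7.62 and 48.04 CPM in any library. In ST2KO against ST2-high, 0 of 4 tested NK cell markers, 0 of 2 CD8 T cell markers and 0 of 4 erythroid or platelet markers fell. Of these erythroid or platelet markers 1 rose by the edgeR test, where 31.9% of all tested genes were called higher. Against ST2-low, 1 of the 4 NK cell markers fell, Eomes (log2 fold change -0.66 ± 0.15 SE, edgeR adjusted p = 0.000248). Among all tested genes 29.3% were called lower there. The NK cell sum was between 17.2 and 23.0 CPM in ST2KO, between 19.8 and 21.7 CPM in ST2-high and between 25.3 and 26.4 CPM in ST2-low. Its ST2-low values overlapped with neither other group. The 3 T cell markers found summed to between 921 and 969 CPM in ST2KO, between 894 and 938 CPM in ST2-high and between 896 and 925 CPM in ST2-low, and the NK cell marker Klra8 and the erythroid marker Hba-a1 were at 0 in all libraries. The part of these markers in the fall of the subunits was not tested.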

How the data were processed

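RNA-seq counts of 9 mouse spleen Treg samples, 3 per group by the genotype labels and titles, were used. Each file deposited by the authors holds whole-number read counts per gene symbol with no normalization, judged from the values. Which aligner, genome build, annotation, counting tool and strand setting were used is not given in the sources used here. Each file had 23420 rows; 27 rows whose symbol had become a calendar date (between 0.182% and 0.206% of counts) were left out, and Rn45s held between 12.1% and 16.9% of counts. Total counts per library lay between 11659659 and 43406680, and intervals cover counting error and replicate spread only as the fit models them.

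Counts were tested with edgeR 4.0.16 (robust glmQLFit and glmQLFTest on all 9 samples, TMM factors, filterByExpr with a minimum count of 10 and total of 15; limma 3.58.1, R 4.3.3), with Benjamini-Hochberg adjustment over 12219 genes at 0.05. SE is the log2 fold change divided by the square root of F. Ratios to Rela were compared by exact permutation over samples. Transcript lengths came from GENCODE M21, and gene overlaps and promoter sequences from RefSeq GRCm38.p6, with the motif search on both strands; these builds need not be the one the authors used. The subunits and lists were chosen with earlier results of these data known. Named genes were the 5 subunits, from each list and comparison the 4 or fewer members with the lowest adjusted p, and the 3 genes most like each subunit by Pearson r (predicted models, pseudogenes and receptor segments left out). Only some of the named list members are printed, and they do not show the range of every list. 1 list and 1 gene within this rule are not reported here. Within groups, libraries differed by more than sampling noise, so each counted as 1 replicate.

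Alternatives were DESeq2 1.42.0 size factors and Wald test, upper-quartile factors, limma-voom, a filter of 5 CPM in 3 samples or none, fits on the 6 samples of a comparison alone, a replicate block, glmTreat at 1.5-fold, thinning to the shallowest library, leaving out Rn45s or each replicate, and, for shares, counts without length. Shares by coding length, levels per kilobase of coding sequence or of all exons, and the kB consensus were added after seeing the data.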

Additional observations from a re-analysis of the deposited data

How the results depend on the processing

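Over 20 alternatives, all 5 subunits stayed called and lower in both ST2KO comparisons: the log2 fold change of Rel lay between -2.32 and -2.20 against ST2-high and between -1.79 and -1.68 against ST2-low. In ST2-high against ST2-low, Rel (between 0.50 and 0.57), Relb (0.49 and 0.65), Nfkb1 (0.45 and 0.53) and Nfkb2 (0.49 and 0.53) stayed higher and called, except under glmTreat with a minimum fold of 1.5. There the values of 0.54, 0.58, 0.48 and 0.52, each under that fold, could not be called (glmTreat adjusted p of 1). Rela lay between 0.0822 and 0.161 over the fits that left out 1 library (adjusted p between 0.0254 and 0.257) and was called only without ST2-high replicate 2. The difference of each ratio to Rela over the 3 groups stayed on the same side of its threshold after thinning and without each library. Replicate numbers did not pair the samples (correlations of deviations between -0.0626 and 0.0984, the best match with the own number in 5 of 18); with the number as a replicate block, Rel was at 0.54 and 1875 genes were called higher and 1335 lower in ST2-high against ST2-low. With glmTreat the counts of called genes were 1027 higher and 1351 lower in ST2KO against ST2-high, 1025 and 1086 in ST2KO against ST2-low, and 335 and 12 in ST2-high against ST2-low. The filter of 5 CPM gave 1456 higher and 1666 lower in ST2-high against ST2-low, where the reported fit gave 1872 and 1317.

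Shares of the summed subunit level depend on the length used. By coding length they were, in ST2KO, ST2-high and ST2-low in this order, 22.8%, 38.2% and 36.4% for Rel, 8.28%, 7.39% and 6.85% for Relb, 35.1%, 28.0% and 27.8% for Nfkb1 and 15.6%, 14.97% and 14.4% for Nfkb2, with Rela at 11.4% in ST2-high and 14.5% in ST2-low. From counts without length they were 17.6%, 30.6% and 29.3% for Rel, 13.1%, 8.49% and 10.9% for Rela, 6.07%, 5.61% and 5.22% for Relb and 18.5%, 18.3% and 17.7% for Nfkb2, with Nfkb1 at 44.7% in ST2KO and 36.9% in ST2-low. After thinning, Rela made up 18.3% in ST2KO and 12.9% in ST2-high. Among pathway genes, 5 values near 0 that were never called changed sign. In ST2-high against ST2-low, Ikbke was at -0.000713 and Map3k14 at -0.00534 with the 5 CPM filter, and Ikbkb at -0.00701 with DESeq2 size factors, -0.00741 with DESeq2's test and -0.0130 with the 5 CPM filter. In ST2KO against ST2-high, Nfatc2 was at -0.0103 with DESeq2 size factors, -0.0111 with DESeq2's test, -0.00138 with only the 6 samples and -0.0229 after thinning. Leaving out 1 library at a time gave between -0.0406 and 0.0802 for Ikbke, between -0.0124 and 0.0368 for Ikbkb, between -0.0391 and 0.0138 for Nfatc1, between -0.0211 and 0.0761 for Map3k14, and between -0.0511 and 0.0283 for Nfatc2. Tnfaip3 in ST2-high against ST2-low became called with limma-voom. Of counts of list members called, 126 moved by more than 1.5 times or between 0 and another count, and 1314 did not. The causes of these shifts were not tested.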
